A study of Mus musculus with 10 samples.

Results

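The genes described here are 10 genes of the cellular stress responses that are steered by the transcription factor ATF4 and by the endoplasmic reticulum. They are a named list with no threshold on their values, drawn up with earlier results of these data known, and were found by Ensembl identifier and GENCODE M21 mouse symbol among the 30460 genes listed for each library. All 10 passed the filter on low values, which 15731 genes passed. The list has an ATF4 arm of 7 genes (Atf4, Ddit3, Trib3, Atf3, Asns, Chac1 and Psat1) and a chaperone arm of 3 genes (Hspa5, Xbp1 and Herpud1). RNA of mouse embryonic stem cells, a culture of pluripotent cells from the C57BL/6 strain, was sequenced in 10 libraries. These were 3 libraries labelled wild type, 3 labelled Mga-/-, 2 labelled L3mbtl2-/- and 2 labelled Pcgf6-/-, and no treatment or other allele is stated. The Mga-/- libraries are called Mga-labelled below, since Mga RNA in 1 of them was at the wild type level. MGA, L3MBTL2 and PCGF6 are subunits of the same Polycomb complex, PRC1.6, and the comparisons ask how the stress genes differ when each subunit gene is disrupted. Nothing says that replicates came from separate clones or dishes of cells, so a p-value here reflects variation among libraries alone, and that variation may be technical.

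Cells that run short of amino acids, or that collect unfolded protein in the endoplasmic reticulum, phosphorylate the translation factor eIF2. General protein synthesis then falls while the Atf4 mRNA is translated more, and ATF4 protein, paired with C/EBP family factors, switches on genes that make and import amino acids. Unfolded protein in the endoplasmic reticulum also activates ATF6 and the enzyme IRE1, which splices the Xbp1 mRNA, and both routes raise chaperones. Much of this control acts on translation, splicing or protein cleavage, so the level of the Atf4 or Xbp1 mRNA does not give the level of the active protein, and a value per gene cannot show the splicing of Xbp1.

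Stretches of 5 promoters hold the letters of DNA elements known from each arm. They are shown so that the shared ATF4 element and the separate chaperone element can be seen beside the values. The sequences are RefSeq promoters of the GRCm38.p6 build, given 5′ to 3′ on the strand of the gene. They lie before the transcription start on which these promoter windows are set, and before and after the start refer to it. That start differs from the GENCODE M21 gene bounds given below. By those bounds the Hspa5 and Atf3 stretches and the Asns match lie within the gene. Capitals mark the matched letters of the composite ATF4 and C/EBP element TGATGNAA on either strand, or, in Hspa5, of the endoplasmic reticulum stress element, which is CCAAT and CCACG with 9 bases between them. All elements were searched on both strands.
Asns, chr6:7693210-7693269, minus strand: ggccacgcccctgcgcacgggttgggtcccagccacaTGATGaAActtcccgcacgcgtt
Atf3, chr1:191183424-191183463, minus strand: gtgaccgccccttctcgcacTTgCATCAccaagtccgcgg
Chac1, chr2:119351027-119351076, plus strand: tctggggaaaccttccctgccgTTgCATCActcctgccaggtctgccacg
Herpud1, chr8:94386294-94386343, plus strand: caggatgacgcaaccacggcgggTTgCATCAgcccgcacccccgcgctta
Hspa5, chr2:34772000-34772059, plus strand: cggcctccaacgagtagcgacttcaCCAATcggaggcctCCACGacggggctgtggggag

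Windows of 300 bases, 250 before and 50 after the start, were available for all 10 genes (11 windows, since Psat1 has 2). TGATGNAA was found in the windows of 5 of the 10 genes and in 3.97% of all 32851 windows. The other gene with a match was Trib3, whose match lies after the start that its window uses and is not printed. By the GENCODE M21 bounds the Trib3 match lies before the gene. With only the 250 bases before the start, 4 genes held the element, against 3.45% of all windows. The endoplasmic reticulum stress element was found in Hspa5 alone among the 10 genes and in 0.119% of all windows. The unfolded protein response element TGACGTGG (0.676% of windows), the cyclic AMP response element TGACGTCA (1.79%) and CACGTG, the E-box bound by MGA with MAX and by many other factors (7.15%), were in none of the 10 genes' windows. A match is a description of letters and not a measured binding site.

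Library depth was 19.4 to 26.7 in units of 1000000 reads, recovered from the steps in which the values move, and each of the 10 genes had between 85 and 23822 reads in every library. The targeted genes were examined first. L3mbtl2 was at 20.2 ± 0.382 FPKM (fragments per kilobase of exon and per 1000000 fragments; SD, n = 3) in wild type and at 3.60 ± 0.162 FPKM in L3mbtl2-/- (SD, n = 2). Pcgf6 was at 28.9 ± 1.13 FPKM in wild type and 9.69 ± 0.182 FPKM in Pcgf6-/-. By limma their log2 fold changes were -2.45 ± 0.16 (SE, adjusted p = 3.24e-05) and -1.56 ± 0.07 (adjusted p = 2.80e-05). Mga stood at 43.5%, 106% and 60.5% of the wild type mean in Mga-labelled replicates 1, 2 and 3, and did not pass over the group (-0.61 ± 0.26, adjusted p = 0.0987 by limma). Mga RNA in replicate 2 goes against its label, but an RNA level alone does not show whether the gene is disrupted. Of the 8 stem cell markers listed below, Pou5f1, Nanog, Zfp42, Esrrb and Dppa5a lay above wild type in replicates 1, 2 and 3. Sall4 was above wild type in replicate 2 (59.9 FPKM) and below it in replicates 1 and 3 (42.9 and 37.2 FPKM). Sox2 and Utf1 lay on 1 side of wild type in replicate 1 and on the other in replicates 2 and 3. Chac1 and Hspa5 in replicate 2 lay on the other side of wild type from replicates 1 and 3. Where leaving replicate 2 out changes a call among the 10 genes or a list's count by over 1.5 times, the result is also given without it. Neither set of values is taken as the better. The stem cell markers chosen for the check (Pou5f1, Nanog, Sox2, Zfp42, Esrrb, Sall4, Dppa5a and Utf1) were all above 0 in every library. They summed to 2072 to 2271 FPKM in wild type and to 2911 to 3733 FPKM in the other libraries. Of these 8 markers 5 passed as higher in the Mga-labelled libraries, 4 in L3mbtl2-/- and 3 in Pcgf6-/-, and none as lower. Of all genes 22.8%, 23.4% and 5.45% passed as higher in the same order. Macrophage markers (10 genes) summed to 148 to 154 FPKM in wild type, 8.69 to 31.8 in the Mga-labelled libraries, 401 to 417 in L3mbtl2-/- and 203 to 207 in Pcgf6-/-. At 0 were 4 and 3 markers in Mga-labelled replicates 2 and 3 and none elsewhere. Lyz2 and Cd68 weighed most in these sums and did not move together. Lyz2 was at 93.3 to 96.3 FPKM in wild type, 315 and 305 in L3mbtl2-/- and 153 and 159 in Pcgf6-/-. Cd68 was at 36.0 to 38.5 FPKM in wild type, 36.3 and 30.4 in L3mbtl2-/- and 22.0 and 20.5 in Pcgf6-/-. In Mga-labelled replicate 2 Cd68 alone was at 31.2 FPKM. Adgre1 also lay below wild type in Pcgf6-/-, while C1qa and C1qb lay above it. Fibroblast markers (10 genes, none at 0) summed to 427 FPKM in Mga-labelled replicate 1 and to 100.1 to 148.7 in the other 9. The part of these other cells in the results below was not tested, and in bulk RNA a change in how many cells of a type are present cannot be told from a change of RNA per cell.

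In wild type cells the genes spanned a wide range of levels, which FPKM allows to be compared because it is per length. Atf4 was the highest at 199 ± 2.29 FPKM (SD, n = 3), followed by Hspa5 at 139 ± 3.56, Asns at 99.9 ± 0.917 and Psat1 at 90.6 ± 1.56. Trib3 (24.5 ± 1.44) and Xbp1 (23.0 ± 0.596) overlapped in their ranges, then came Herpud1 (11.4 ± 0.415) and Chac1 (9.56 ± 0.807), and last Atf3 (5.12 ± 0.625) and Ddit3 (4.59 ± 0.485), which overlapped as well. The lengths behind these values were those of GENCODE M21 for 9 genes. For Atf4 the values gave a length of 1724 bases where the annotation has 2358, which scales its level but none of its fold changes. At the annotated length its level would be lower and much nearer to that of Hspa5.

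**Figure D1:**
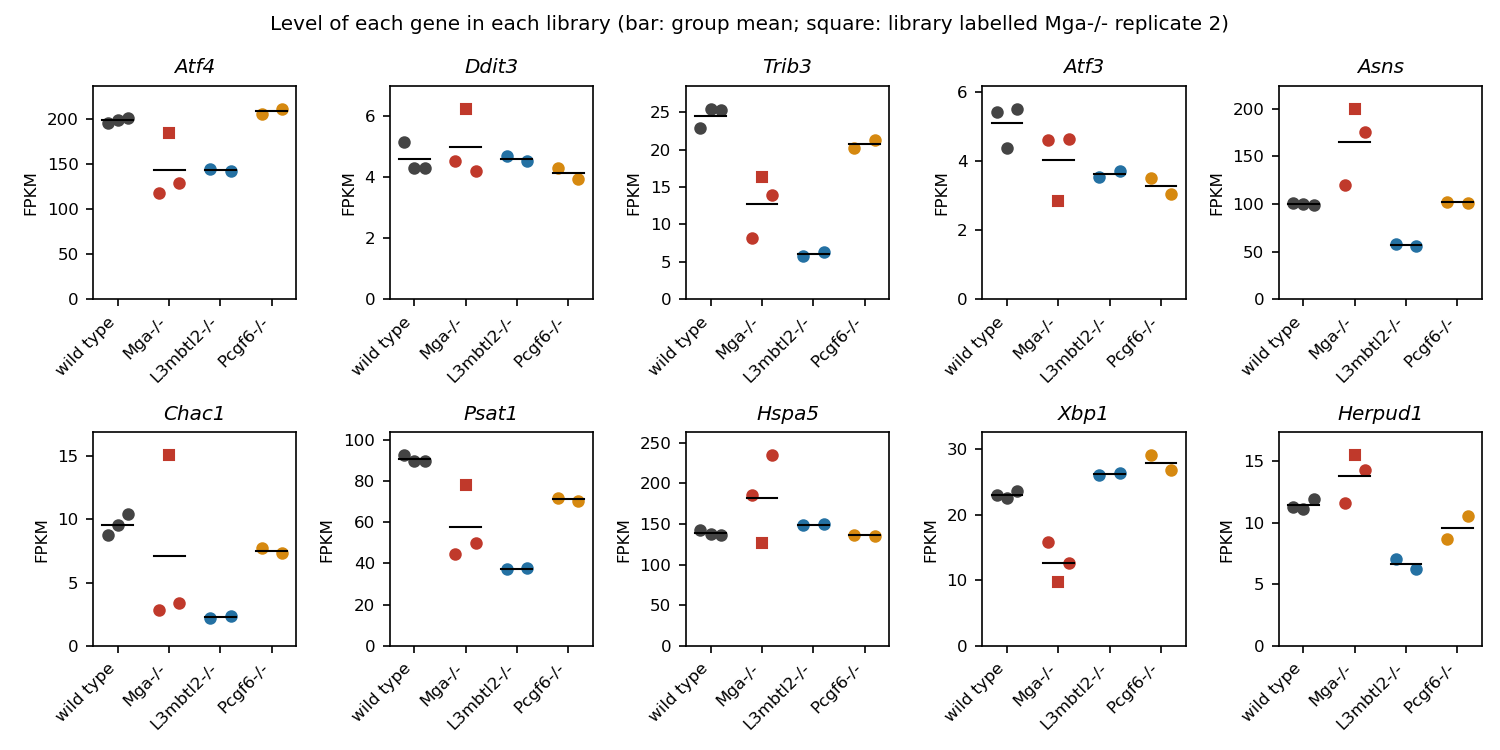
FPKM (vertical axis, from 0) of each of the 10 genes in each of the 10 libraries, by genotype; points are libraries, bars are group means and the square is Mga-labelled replicate 2. Chac1 and Psat1 sit lowest in L3mbtl2-/-, Asns is above wild type in all 3 Mga-labelled libraries and below it in L3mbtl2-/-, and Xbp1 is lowest in the Mga-labelled libraries.

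Atf4, the regulator of the first arm (ENSMUSG00000042406, chromosome 15, 80255184 to 80257541, GRCm38), was at 196, 199 and 201 FPKM in the wild type libraries. It was at 118, 184 and 129 FPKM in the Mga-labelled libraries, at 144 and 142 FPKM in L3mbtl2-/- and at 206 and 211 FPKM in Pcgf6-/-. All Mga-labelled libraries and both of L3mbtl2-/- lay below wild type, with replicate 2 of the former the nearest to it. By limma's test over all 15731 genes, on log2(FPKM + 0.1) with Benjamini-Hochberg adjustment as for every p-value here, Atf4 fell in the Mga-labelled libraries (log2 fold change -0.50 ± 0.14, SE; adjusted p = 0.0251). It fell in L3mbtl2-/- by a similar size (-0.47 ± 0.16, adjusted p = 0.0451), and the log2 fold change in Pcgf6-/- was 0.07 ± 0.16 (adjusted p = 0.834). The L3mbtl2-/- call was lost in 12 of 21 alternatives (adjusted p up to 0.171), among them the removal of either L3mbtl2-/- library. The other call was lost in 6 of 21 (adjusted p up to 0.0777), among them the removal of any wild type library or of Mga-labelled replicate 1 or 3. Without Mga-labelled replicate 2 it was -0.69 (adjusted p = 3.99e-05).

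Asns and Psat1 are the amino acid genes of the list. Asns encodes asparagine synthetase (ENSMUSG00000029752, chromosome 6, 7675169 to 7693254) and was at 101, 100.3 and 98.9 FPKM in wild type. It was at 120, 199.7 and 175 FPKM in the Mga-labelled libraries, at 57.8 and 56.2 FPKM in L3mbtl2-/- and at 102 and 102 FPKM in Pcgf6-/-. The first group lay wholly above wild type and the second wholly below it, and the log2 fold change in Pcgf6-/- was 0.02 ± 0.18 (SE, adjusted p = 0.956 by limma), with its sign turned by the median-of-ratios scaling (-0.02) and by centring on the chromosome median (-0.11). Asns was the 1 gene of the 10 that rose past the threshold against wild type, by 0.69 ± 0.16 on the log2 scale in the Mga-labelled libraries (SE, adjusted p = 0.00953), and it fell in L3mbtl2-/- (-0.81 ± 0.18, adjusted p = 0.00753). The median of chromosome 6 in the first comparison was 0.28. With each library centred on the median of its chromosomes the rise was 0.42 and did not pass (adjusted p = 0.214), while without Mga-labelled replicate 2 it was 0.54 and passed (adjusted p = 0.0112). The fall in L3mbtl2-/- was lost with 1 of its libraries left out (adjusted p = 0.0509 without replicate 1 and 0.0562 without replicate 2).

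Psat1 encodes phosphoserine aminotransferase, which acts in serine synthesis (ENSMUSG00000024640, chromosome 19, 15904678 to 15947337). It was at 92.4, 89.7 and 89.6 FPKM in wild type, 44.7, 78.0 and 49.8 FPKM in the Mga-labelled libraries, 37.3 and 37.8 FPKM in L3mbtl2-/- and 71.9 and 70.3 FPKM in Pcgf6-/-. Every knockout library lay below every wild type library. Psat1 fell in the Mga-labelled libraries (-0.70 ± 0.18, adjusted p = 0.014) and in L3mbtl2-/- (-1.27 ± 0.20, adjusted p = 0.0016). The former was -0.94 without Mga-labelled replicate 2 (adjusted p = 1.43e-05). The direct difference between these knockouts was 0.57 ± 0.20 and did not pass (adjusted p = 0.0682), but it passed in 3 of 21 alternatives. It was 0.33 without Mga-labelled replicate 2 (adjusted p = 0.00545), 0.73 without replicate 1 (adjusted p = 0.0143) and 0.57 with a spread for each group (adjusted p = 0.0245). In Pcgf6-/- the log2 fold change was -0.35 ± 0.20 and did not pass (adjusted p = 0.301), though it passed with a spread for each group (adjusted p = 0.000842) and without Mga-labelled replicate 2 (adjusted p = 0.00437). The call in the Mga-labelled libraries was lost with only those and wild type in the fit (adjusted p = 0.0518). Asns and Psat1 lay on opposite sides of wild type in the Mga-labelled libraries and on the same side in L3mbtl2-/-.

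Trib3 and Chac1 had the lowest log2 fold changes of the 10 genes in L3mbtl2-/-. Trib3 encodes a pseudokinase that binds ATF4 and dampens it (ENSMUSG00000032715, chromosome 2, 152337422 to 152344032). It was at 22.8, 25.4 and 25.2 FPKM in wild type, 8.14, 16.3 and 14.0 FPKM in the Mga-labelled libraries, 5.75 and 6.33 FPKM in L3mbtl2-/- and 20.2 and 21.2 FPKM in Pcgf6-/-. No knockout library reached the wild type range. The log2 fold change was -0.99 ± 0.22 in the Mga-labelled libraries (SE, adjusted p = 0.00819) and -2.002 ± 0.24 in L3mbtl2-/- (adjusted p = 0.000563), and both calls held in all 21 alternatives. The difference between those knockouts passed too (1.01 ± 0.24, adjusted p = 0.019), but that call was lost in 4 of 21 alternatives. In Pcgf6-/- against wild type the value was -0.24 ± 0.24 (adjusted p = 0.595).

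Chac1 encodes an enzyme that breaks down glutathione (ENSMUSG00000027313, chromosome 2, 119351229 to 119354381). It was at 8.76, 9.53 and 10.4 FPKM in wild type. In the Mga-labelled libraries it was at 2.86, 15.0 and 3.38 FPKM. It was at 2.19 and 2.39 FPKM in L3mbtl2-/- and at 7.73 and 7.32 FPKM in Pcgf6-/-. Mga-labelled replicate 2 was above all wild type libraries and the other 2 were below them, so that group overlapped wild type. The log2 fold change there was -0.84 ± 0.52 and did not pass (adjusted p = 0.227), while without replicate 2 it was -1.59 and passed (adjusted p = 2.73e-05). In L3mbtl2-/- Chac1 fell (-2.01 ± 0.58, adjusted p = 0.0237), which did not pass with any 1 wild type library left out (adjusted p = 0.0533 to 0.0657) or with 1 of its own left out (adjusted p = 0.101 to 0.118). All groups share 1 estimate of the spread per gene, and without Mga-labelled replicate 2 the adjusted p in L3mbtl2-/- was 1.01e-05. In Pcgf6-/- both libraries lay below wild type, with a log2 fold change of -0.34 ± 0.58 that did not pass (adjusted p = 0.772).

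Ddit3 and Atf3, transcription factors that ATF4 is known to induce under stress, were the least expressed of the 10 in wild type and in Pcgf6-/-, while in L3mbtl2-/- and in Mga-labelled replicates 1 and 3 Chac1 was lower than both. Ddit3 encodes CHOP, which promotes cell death under lasting stress (ENSMUSG00000025408, chromosome 10, 127290774 to 127296288). It was at 5.15, 4.30 and 4.32 FPKM in wild type, 4.54, 6.24 and 4.203 FPKM in the Mga-labelled libraries, 4.695 and 4.54 FPKM in L3mbtl2-/- and 4.32 and 3.95 FPKM in Pcgf6-/-. The highest was Mga-labelled replicate 2. Its groups overlapped wild type in every comparison, and its log2 fold changes were 0.10 ± 0.16, 0.01 ± 0.18 and -0.14 ± 0.18 in the Mga-labelled libraries, in L3mbtl2-/- and in Pcgf6-/- (adjusted p = 0.628, 0.965 and 0.666). The first 2 of these change sign under other settings. GENCODE M21 has a second Ddit3 identifier at the same locus, which was not analysed here, and reads of overlapping genes may be divided by counting.

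Atf3 encodes a factor that can repress stress genes (ENSMUSG00000026628, chromosome 1, 191170296 to 191218039). It was at 5.44, 4.39 and 5.51 FPKM in wild type, 4.605, 2.84 and 4.66 FPKM in the Mga-labelled libraries, 3.54 and 3.73 FPKM in L3mbtl2-/- and 3.52 and 3.04 FPKM in Pcgf6-/-. L3mbtl2-/- and Pcgf6-/- lay below wild type, and the Mga-labelled libraries overlapped it. None of the log2 fold changes passed (-0.36 ± 0.20, -0.48 ± 0.22 and -0.62 ± 0.22, adjusted p = 0.174, 0.116 and 0.112). With Mga-labelled replicate 2 left out the values in L3mbtl2-/- and Pcgf6-/- passed (adjusted p = 0.0128 and 0.00979), and that in the Mga-labelled libraries was -0.13 (adjusted p = 0.387). The median of chromosome 1 was 0.75 in L3mbtl2-/- and 0.30 in the Mga-labelled libraries. Relative to its chromosome Atf3 passed in all 3 knockouts, at -0.66 in the Mga-labelled libraries (adjusted p = 0.0138), -1.24 in L3mbtl2-/- (adjusted p = 0.00135) and -0.71 in Pcgf6-/- (adjusted p = 0.0461).

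**Figure D2:**
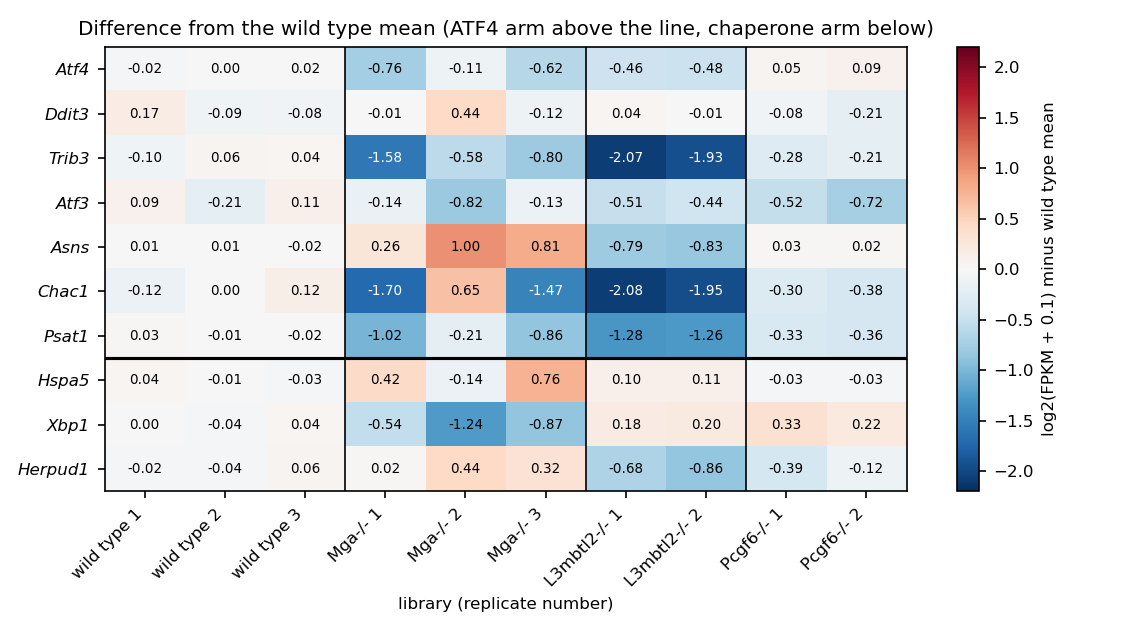
Difference of each gene (rows) in each library (columns, by replicate number) from its wild type mean, as log2(FPKM + 0.1); red is higher and blue lower, with the value in each cell. Within the Mga-labelled libraries the ATF4 arm runs from -1.70 (Chac1, replicate 1) to 0.998 (Asns, replicate 2), while the L3mbtl2-/- libraries differ from each other by little.

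In the chaperone arm 1 gene passed in the Mga-labelled libraries (Xbp1), another in L3mbtl2-/- (Herpud1) and none in Pcgf6-/-. Hspa5 encodes BiP, the main Hsp70 chaperone of the endoplasmic reticulum (ENSMUSG00000026864, chromosome 2, 34771970 to 34777547), and was at 143, 137 and 136 FPKM in wild type. It was at 185, 126 and 234 FPKM in the Mga-labelled libraries, at 149 and 149.7 FPKM in L3mbtl2-/- and at 136 and 136 FPKM in Pcgf6-/-. Replicates 1 and 3 of the first group were above wild type and replicate 2 below it. The log2 fold change was 0.35 ± 0.18 in the Mga-labelled libraries and did not pass (SE, adjusted p = 0.167), whereas without replicate 2 it was 0.59 and passed (adjusted p = 0.00117). The values in L3mbtl2-/- (0.11 ± 0.21, adjusted p = 0.706) and Pcgf6-/- (-0.03 ± 0.21, adjusted p = 0.956) were small beside their errors, and both change sign under some settings.

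Xbp1 encodes the factor activated by splicing through IRE1 (ENSMUSG00000020484, chromosome 11, 5520659 to 5525893). It was at 23.0, 22.5 and 23.7 FPKM in wild type, 15.8, 9.68 and 12.6 FPKM in the Mga-labelled libraries, 26.1 and 26.4 FPKM in L3mbtl2-/- and 29.0 and 26.8 FPKM in Pcgf6-/-. The first knockout group was wholly below wild type, and the other 2 wholly above it. Xbp1 fell in the Mga-labelled libraries (-0.89 ± 0.15, adjusted p = 0.00259), a call that held in all 21 alternatives. The median of chromosome 11 was -0.23 there, and relative to it Xbp1 was at -0.61 (adjusted p = 0.0033). The values of 0.19 ± 0.17 in L3mbtl2-/- (adjusted p = 0.407) and 0.28 ± 0.17 in Pcgf6-/- (adjusted p = 0.349) did not pass. In Pcgf6-/- the chromosome 11 median was -0.31, and relative to it Xbp1 was at 0.58 and passed (adjusted p = 0.0244).

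Herpud1 encodes a membrane protein of the endoplasmic reticulum that serves the disposal of misfolded proteins (ENSMUSG00000031770, chromosome 8, 94386438 to 94395377). It was at 11.3, 11.1 and 11.9 FPKM in wild type, 11.6, 15.5 and 14.3 FPKM in the Mga-labelled libraries, 7.09 and 6.25 FPKM in L3mbtl2-/- and 8.67 and 10.5 FPKM in Pcgf6-/-. Against wild type Herpud1 fell in L3mbtl2-/- (-0.77 ± 0.14, adjusted p = 0.00354), a call that held in all 21 alternatives. The log2 fold change was 0.26 ± 0.13 in the Mga-labelled libraries (adjusted p = 0.134) and -0.26 ± 0.14 in Pcgf6-/- (adjusted p = 0.295). The Mga-labelled libraries overlapped wild type, and without replicate 1 of them the value was 0.38 and passed (adjusted p = 0.0193). The difference between the Mga-labelled libraries and L3mbtl2-/- itself passed (1.03 ± 0.14, adjusted p = 0.00156). Herpud1 is the gene of this arm whose promoter holds the TGATGNAA element printed above.

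**Figure D3:**
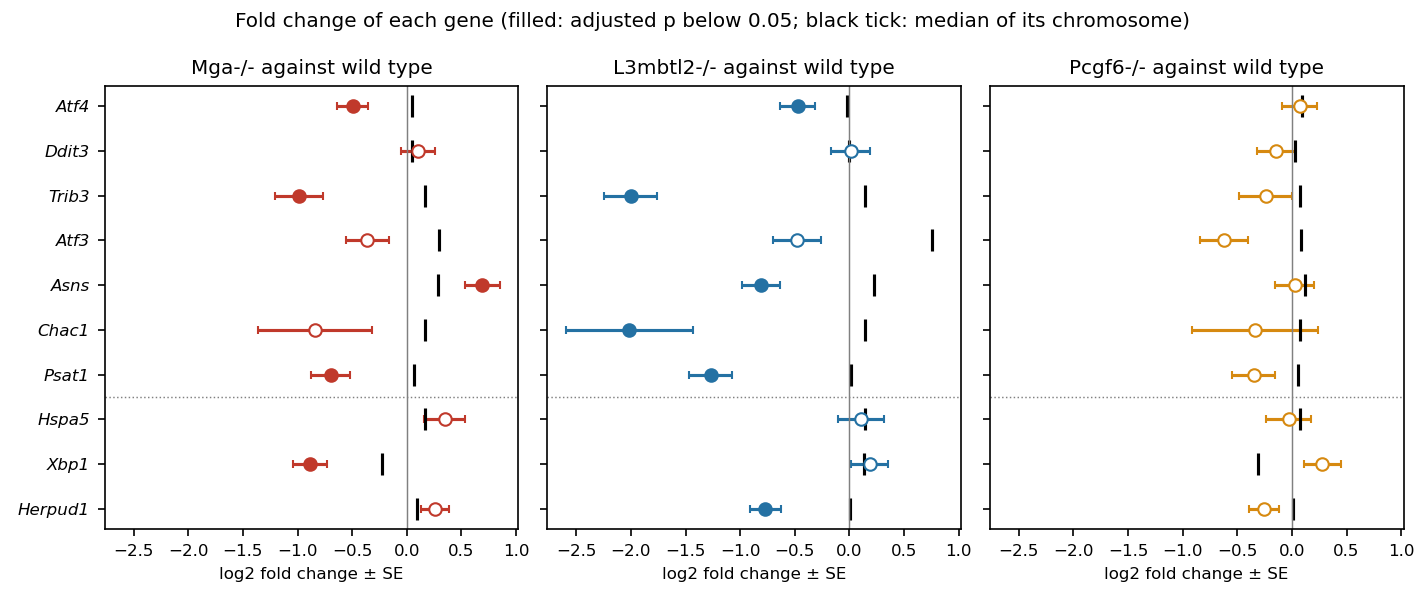
Log2 fold change (horizontal axis) with its standard error for each gene in each knockout against wild type; filled points passed an adjusted p of 0.05, and black ticks mark the median of all tested genes on the gene's chromosome. Of the ATF4 arm (above the dotted line), Trib3, Asns, Chac1 and Psat1 lie furthest left in L3mbtl2-/-, Atf4 in the Mga-labelled libraries and Atf3 and Ddit3 in Pcgf6-/-, and the chromosome 1 median of 0.75 stands apart from Atf3.

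Over the list, 5 of the 10 genes passed in the Mga-labelled libraries, 1 higher (Asns) and 4 lower (Atf4, Trib3, Psat1 and Xbp1). Of all genes tested 39.5% passed in that comparison, 22.8% higher and 16.7% lower, so the share of the list called in either direction is near the background. The 4 of 10 lower stand beside the 16.7% lower of all genes, and the median log2 fold change was -0.43 over the 10 genes and 0.10 over all genes. Without Mga-labelled replicate 2, 7 of the 10 passed, 2 higher and 5 lower, against 55.1% of all genes. In L3mbtl2-/-, 6 of the 10 passed and all 6 were lower (Atf4, Trib3, Asns, Chac1, Psat1 and Herpud1), against 40.0% of all genes called, 23.4% higher and 16.7% lower. The median was -0.62 over the list and 0.13 over all genes. The median-of-ratios scaling takes the median of all genes to 0.00 in the Mga-labelled libraries and to 0.02 in L3mbtl2-/-. With that scaling 5 and 7 of the 10 passed, where 38.5% of all genes passed in the Mga-labelled libraries. The share of all called genes that were higher was 57.8% and 58.4% as deposited and 48.0% and 47.6% with that scaling. The count in L3mbtl2-/- was 3 without its replicate 1 or 2 (18.7% and 20.4% of all genes) and 4 with any wild type library left out (28.9% to 30.3%), so it fell as the count over all genes fell. It was 7 without Mga-labelled replicate 2 (54.2% of all genes) and 8, of which 1 was higher, with a spread for each group (70.6%). With only L3mbtl2-/- and wild type in the fit it was 9 (67.3%), 7 lower and 2 higher (Hspa5 at 0.11, adjusted p = 0.0241, and Xbp1 at 0.19, adjusted p = 0.00487).

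In Pcgf6-/- none of the 10 genes passed by limma, where 10.1% of all genes did (5.45% higher, 4.62% lower). By limma 1 gene (Atf3) had an unadjusted p under 0.05, a threshold at which the share of all genes is not given. None passed by limma-voom on the recovered reads. With a spread for each group 5 of the 10 passed in Pcgf6-/- (1 higher, 4 lower), against 47.7% of all genes. Without Mga-labelled replicate 2 the count was 2 (Atf3 and Psat1), against 25.2%. The median log2 fold change in Pcgf6-/- was -0.19 over the list and 0.04 over all genes. The 3 comparisons share their wild type libraries, so their values are given side by side and not as independent evidence.

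The knockouts were also compared with each other. Between the Mga-labelled libraries and L3mbtl2-/-, 4 of the 10 genes passed (22.8% of all genes, 10.9% higher and 12.0% lower), with Asns (1.501 ± 0.18, adjusted p = 0.000764), Trib3 and Herpud1 higher in the former and Xbp1 lower (-1.07 ± 0.17, adjusted p = 0.00304). Atf4 itself did not pass there, at -0.02 ± 0.16 (adjusted p = 0.932), but without Mga-labelled replicate 2 it was -0.22 and passed as lower in the Mga-labelled libraries (adjusted p = 0.0199). Between the Mga-labelled libraries and Pcgf6-/- 4 passed as well (22.6% of all genes, 12.0% higher and 10.6% lower), Asns (0.67) and Herpud1 (0.52) higher in the former and Atf4 (-0.57) and Xbp1 (-1.16) lower. Without Mga-labelled replicate 2 these counts were 8 and 9, against 36.1% and 44.5% of all genes. The calls gained against L3mbtl2-/- were Atf4 lower and Psat1, Chac1 (0.43) and Hspa5 (0.48) higher. Those gained against Pcgf6-/- were Atf3 (0.49) and Hspa5 (0.62) higher and Trib3 (-0.95), Chac1 (-1.25) and Psat1 (-0.59) lower. Between L3mbtl2-/- and Pcgf6-/- 5 passed, all lower in L3mbtl2-/- (30.5% of all genes, 16.6% higher and 13.9% lower). These were Trib3 (-1.76), Psat1 (-0.92), Asns (-0.83), Atf4 (-0.54) and Herpud1 (-0.51), with Chac1 (-1.68, adjusted p = 6.72e-05) added without Mga-labelled replicate 2. With 1 library left out these log2 fold changes ran from -1.83 to -1.69 (Trib3), -0.94 to -0.90 (Psat1) and -0.86 to -0.81 (Asns). They ran from -0.56 to -0.52 for Atf4 and from -0.65 to -0.38 for Herpud1. The count between the Mga-labelled libraries and Pcgf6-/- was 1 without any 1 wild type library or Mga-labelled replicate 3. Counts over all genes also change with the library left out, so the smaller count is not read as a result about the 10 genes.

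The mean over each arm was taken in every library, relative to wild type, as a description. The ATF4 arm was at -0.71, 0.05 and -0.46 in Mga-labelled replicates 1, 2 and 3, at -1.02 and -0.99 in L3mbtl2-/- and at -0.20 and -0.25 in Pcgf6-/-, where wild type libraries ran from -0.04 to 0.03. The chaperone arm was at -0.03, -0.31 and 0.07, at -0.13 and -0.18, and at -0.03 and 0.02 in the same order, with wild type from -0.03 to 0.02. The mean of the ATF4 arm was lowest in L3mbtl2-/-, and the chaperone arm mean was lowest in Mga-labelled replicate 2, where Xbp1 was below its wild type mean (-1.24) and Herpud1 was above it (0.44).

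**Figure D4:**
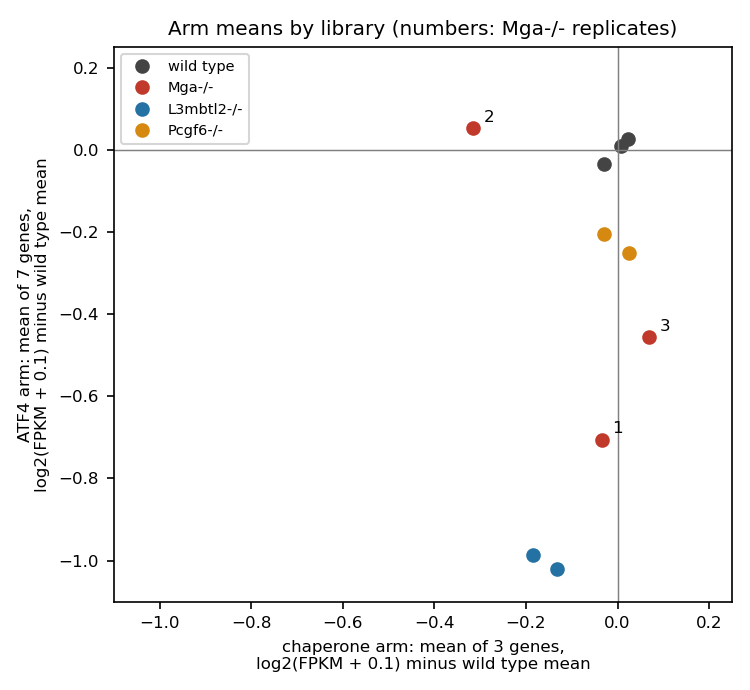
Mean log2 difference from wild type over the 3 genes of the chaperone arm (horizontal axis) and the 7 genes of the ATF4 arm (vertical axis) in each library, drawn to the same scale; numbers mark the Mga-labelled replicates. The L3mbtl2-/- libraries lie at -1.02 and -0.99 on the vertical axis and at -0.13 and -0.18 on the horizontal one, and Mga-labelled replicate 2 lies apart from replicates 1 and 3.

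Other genes of the same pathways were counted over lists of their known members, all of which were tested. These counts are read against the shares of all genes that passed higher and lower, 22.8% and 16.7% in the Mga-labelled libraries, 23.4% and 16.7% in L3mbtl2-/- and 5.45% and 4.62% in Pcgf6-/-. Counts at an unadjusted p under 0.05, given for some lists, have no such share beside them and are not read as results. With Mga-labelled replicate 2 left out of the fit more of all genes passed, 32.6% higher and 22.5% lower, 31.6% and 22.6%, and 14.0% and 11.1% in the same order. Genes of serine, folate and amino acid synthesis fell at 2 of 12 members in the Mga-labelled libraries, at 7 of 12 in L3mbtl2-/- and at none in Pcgf6-/- (3 at an unadjusted p under 0.05, none by limma-voom), and none rose (medians -0.31, -1.04 and -0.34, beside 0.10, 0.13 and 0.04 over all genes). Phgdh, the first enzyme of serine synthesis from glycolysis, was at 102, 104 and 106 FPKM in wild type, 54.0, 49.6 and 35.4 FPKM in the Mga-labelled libraries and 28.4 and 30.1 FPKM in L3mbtl2-/-. It fell in both (-1.19 ± 0.14, adjusted p = 0.000429, and -1.83 ± 0.15, adjusted p = 0.000115). Mthfd2, a mitochondrial enzyme of folate metabolism, fell in both as well (-1.63 and -1.097), and Cth and Cbs of cysteine synthesis fell in L3mbtl2-/- (-2.10 and -1.24). In Pcgf6-/- the smallest p was that of Gpt2, an alanine aminotransferase (-1.49 ± 0.47, adjusted p = 0.0781). The 2 of 12 that fell in the Mga-labelled libraries stand beside 16.7% of all genes, and the 7 of 12 in L3mbtl2-/- beside 16.7%. With Mga-labelled replicate 2 left out, 7 of the 12 fell in the Mga-labelled libraries, 11 in L3mbtl2-/- and 4 in Pcgf6-/-, beside 22.5%, 22.6% and 11.1% of all genes. Without replicate 1 of that group 2 rose and 2 fell in the Mga-labelled libraries, 11 fell in L3mbtl2-/- and 1 rose and 4 fell in Pcgf6-/-, where 44.8%, 52.6% and 22.7% of all genes passed. With L3mbtl2-/- replicate 1 left out the L3mbtl2-/- count was 4, beside 18.7% of all genes.

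Among 10 amino acid transporters 2 rose and 2 fell in the Mga-labelled libraries, 1 rose and 6 fell in L3mbtl2-/-, and 1 fell in Pcgf6-/- (medians -0.26, -0.39 and -0.07). The 4 of 10 called in the Mga-labelled libraries are at the background of 39.5% of all genes, and the 6 of 10 lower in L3mbtl2-/- stand beside 16.7%. Slc1a4, a carrier of neutral amino acids, fell in all 3 knockouts (-1.52, -1.57 and -0.83, adjusted p = 7.08e-05, 0.000119 and 0.00834), although in Pcgf6-/- it did not pass relative to its chromosome 11 (-0.53, adjusted p = 0.0993). Slc7a3, a carrier of cationic amino acids, rose in the Mga-labelled libraries (0.89 ± 0.25, adjusted p = 0.0228) and in L3mbtl2-/- (1.38 ± 0.28, adjusted p = 0.0055), though relative to its chromosome the former was 0.67 and did not pass (adjusted p = 0.0632). Of 20 cytosolic aminoacyl-tRNA synthetases, which load amino acids onto tRNA, 2 rose and 5 fell in the Mga-labelled libraries, 2 rose and 6 fell in L3mbtl2-/- and 1 rose in Pcgf6-/- (medians -0.21, -0.29 and -0.08). The 7 and 8 of 20 called are near the 39.5% and 40.0% of all genes called in the first 2 comparisons. Gars fell in the first (-0.78 ± 0.08, adjusted p = 0.000238), Vars in the second (-1.50 ± 0.18, adjusted p = 0.000489) and Sars in both (-0.78 and -1.24), while Farsa rose in the first (0.67). Eprs rose in L3mbtl2-/- (0.49) where the chromosome 1 median was 0.75, and relative to its chromosome it was at -0.27 and did not pass (adjusted p = 0.143). With Mga-labelled replicate 2 left out, transporters in the Mga-labelled libraries gave 3 rises and 5 falls, and synthetases 4 and 13, where 32.6% of all genes rose and 22.5% fell. The synthetases then gave 4 rises and 11 falls in L3mbtl2-/- (31.6% and 22.6% of all genes) and 1 rise and 4 falls in Pcgf6-/- (14.0% and 11.1%).

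Other stress effectors and partners of ATF4 fell at 7 of 18 members and rose at 3 in the Mga-labelled libraries, fell at 9 and rose at none in L3mbtl2-/-, and gave no call in Pcgf6-/- (3 at an unadjusted p under 0.05, 1 fall by limma-voom; medians -0.31, -0.59 and -0.17). Of all genes 16.7% fell and 22.8% rose in the first comparison, and 16.7% fell and 23.4% rose in the second. Adm2, a peptide hormone, fell from 2.61 ± 0.0848 FPKM (SD, n = 3) to 0.527 ± 0.272 FPKM in the Mga-labelled libraries (SD, n = 3). In L3mbtl2-/- it fell to 0.206 ± 0.0624 FPKM (SD, n = 2), near the 0.1 FPKM added before the logarithm. The log2 fold changes were -2.196 and -3.16. Over the 21 alternatives these ran from -2.53 to -1.25 and from -3.57 to -1.58, and both calls held. Nupr1, a stress-induced chromatin protein (-2.50), Ddit4, an inhibitor of mTORC1 (-1.18), and Stc2, a secreted glycoprotein (-1.92), fell in L3mbtl2-/-. In Pcgf6-/- the smallest p was that of Klhl24, an adaptor of a ubiquitin ligase (-0.57 ± 0.15, adjusted p = 0.0514). Among 19 stress sensors and eIF2 subunits and regulators, 3 rose and 5 fell in the Mga-labelled libraries, 5 rose and 2 fell in L3mbtl2-/- and 1 rose in Pcgf6-/- (medians 0.03, 0.19 and 0.07). The 8 and 7 of 19 called are near the 39.5% and 40.0% of all genes. Eif2ak3, the sensor kinase PERK, was at 3.56, 3.49 and 3.36 FPKM in wild type, 2.19, 2.29 and 2.67 FPKM in the Mga-labelled libraries and 5.23 and 5.49 FPKM in L3mbtl2-/-. It fell in the former (-0.53 ± 0.11, adjusted p = 0.00664) and rose in the latter (0.61 ± 0.12, adjusted p = 0.00554), but in L3mbtl2-/- relative to its chromosome 6 the value was 0.39 and did not pass (adjusted p = 0.0945). Atf6, the sensor that is cut to a transcription factor, rose in L3mbtl2-/- (1.34 ± 0.21, adjusted p = 0.00177), and relative to chromosome 1 it was at 0.58 (adjusted p = 0.00518). In the fit without Mga-labelled replicate 2, 2 of the stress effectors rose and 9 fell in the Mga-labelled libraries (32.6% and 22.5% of all genes), and 3 fell in Pcgf6-/- (11.1%). Of the sensors and eIF2 genes 5 then rose and 7 fell in the Mga-labelled libraries, 7 rose and 4 fell in L3mbtl2-/- and 3 rose and 4 fell in Pcgf6-/-, where 55.1%, 54.2% and 25.2% of all genes passed.

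Of 19 other chaperones and folding enzymes 4 rose and 2 fell in the Mga-labelled libraries, 3 rose and 2 fell in L3mbtl2-/- and 2 fell in Pcgf6-/- (medians 0.18, 0.05 and 0.04). The 6 and 5 of 19 called stand beside 39.5% and 40.0% of all genes. The calcium-binding chaperone Calr (0.60 ± 0.13, adjusted p = 0.00879) and the disulfide isomerase Pdia4 (0.62 ± 0.16, adjusted p = 0.0154) rose in the Mga-labelled libraries. Relative to its chromosome Pdia4 was at 0.35 and passed (adjusted p = 0.0212). The oxidase gene Ero1lb rose in the Mga-labelled libraries (0.82) and in L3mbtl2-/- (1.07). Fkbp2 (-0.83, adjusted p = 0.00027) and Pdia6 (-0.45, adjusted p = 0.0148) fell in L3mbtl2-/-. Canx on chromosome 11 fell in the Mga-labelled libraries (-0.41) and in Pcgf6-/- (-0.67). Relative to its chromosome the former value was -0.14 and did not pass (adjusted p = 0.131). The latter value was then -0.36 and passed (adjusted p = 0.0225). P4hb, on the same chromosome, fell in Pcgf6-/- (-0.46), and relative to it was at -0.16 (adjusted p = 0.241). The P4hb call was lost in 11 of 21 alternatives. Of 17 genes of degradation and translocation at the endoplasmic reticulum, 4 rose and none fell in the Mga-labelled libraries, 5 rose and 1 fell in L3mbtl2-/- and 2 rose in Pcgf6-/- (medians 0.22, 0.25 and 0.02). The 4 and 5 of 17 higher are near the 22.8% and 23.4% of all genes. Syvn1, the ubiquitin ligase of this route, rose in all 3 knockouts (0.74 ± 0.09, 0.60 ± 0.10 and 0.55 ± 0.10, adjusted p = 0.000588, 0.00259 and 0.0136). The Syvn1 call in Pcgf6-/- was lost in 5 of 21 alternatives, and the other 2 calls held in all. In L3mbtl2-/- Edem3 rose (1.43, adjusted p = 0.000255) and Derl3 fell (-0.68, adjusted p = 0.00754). Relative to its chromosome 1 Edem3 was at 0.67 and passed (adjusted p = 0.000457). With Mga-labelled replicate 2 left out, 13 of the 17 rose in the Mga-labelled libraries, 9 rose and 1 fell in L3mbtl2-/- and 3 rose and 2 fell in Pcgf6-/-, where 32.6%, 31.6% and 14.0% of all genes rose. The chaperones and folding enzymes then gave 7 rises and 2 falls in the Mga-labelled libraries, 5 rises and 4 falls in L3mbtl2-/- and 2 rises and 3 falls in Pcgf6-/-.

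Heat shock genes of the cytosol, listed for comparison, rose at 4 of 10 members and fell at 2 in the Mga-labelled libraries, rose at 1 and fell at 2 in L3mbtl2-/- and gave no call in Pcgf6-/- (3 at an unadjusted p under 0.05, none by limma-voom; medians 0.31, -0.06 and 0.02). Of all genes 22.8% rose and 16.7% fell in the first comparison, and 23.4% and 16.7% in the second. Hspb1, a small heat shock protein, rose in the Mga-labelled libraries from 259 ± 19.6 to 657 ± 211 FPKM (SD, n = 3 and 3; 1.29 ± 0.20, adjusted p = 0.00159). Hspa8, the constitutive cytosolic Hsp70, fell there (-0.44 ± 0.07, adjusted p = 0.00221). Hspa1a and Hspa1b are near-identical copies whose reads may be divided by counting, so their calls are uncertain. Without Mga-labelled replicate 2, 5 rose and 2 fell in the Mga-labelled libraries, 1 rose and 4 fell in L3mbtl2-/- and 1 rose and 1 fell in Pcgf6-/-, where 55.1%, 54.2% and 25.2% of all genes passed.

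**Figure D5:**
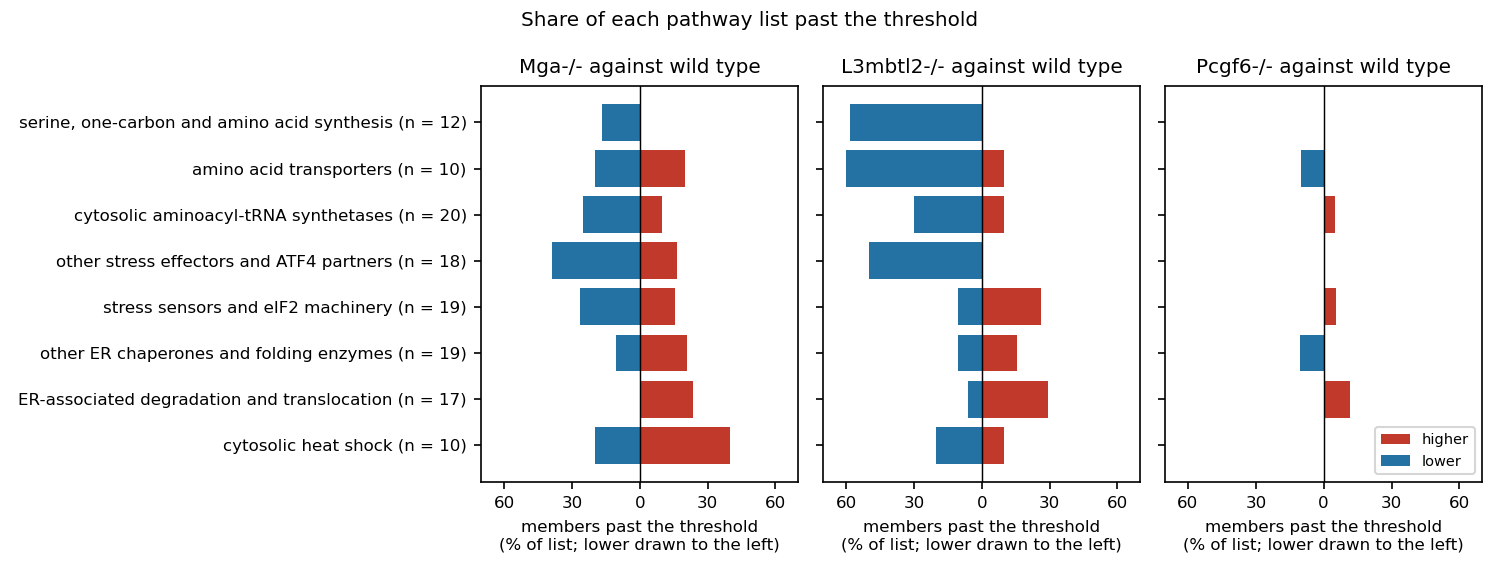
Share of each pathway list (percent of its members, horizontal axis) past an adjusted p of 0.05 in each knockout against wild type, higher to the right in red and lower to the left in blue. In L3mbtl2-/- the amino acid synthesis list has 7 of 12 genes lower and none higher, where 16.7% of all genes were lower, and the endoplasmic reticulum degradation list has 5 of 17 higher, near the 23.4% of all genes.

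The genes most like each arm were found by the root-mean-square difference between library profiles, over the 10 libraries and 13299 other tested genes, after each profile was centred on its mean. For the ATF4 arm mean they were Eef2, a translation elongation factor (0.07 log2 units), Slc44a2, a choline transporter-like protein (0.09), and Prdx2, a peroxiredoxin (0.09). Psat1 was the member nearest to its arm mean (0.14) and Chac1 the furthest from it (0.56). For the chaperone arm the nearest were Chmp4b, Dcaf4 and Ddx39b (0.05, 0.05 and 0.05), but this arm's mean varied little (SD 0.11 over the libraries), and its own members lay at 0.23 (Hspa5), 0.39 (Herpud1) and 0.48 (Xbp1) from it.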

How the data were processed

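RNA from 10 libraries was analysed from the FPKM values per gene that the authors deposited, 1 file per library. Per the labels' protocols the NEBNext Ultra kit was used; it keeps no strand, and antisense reads cannot be told apart. Per the submitters' processing notes, Bowtie2 2.2.3, TopHat2 2.0.12 and HTSeq 0.6.0 were used with GRCm38; the library totals behind the FPKM are not stated. For 77.9% of the 28713 genes above 0, whole reads (tolerance 0.005) came back at the GENCODE M21 exon length, and for 22.1% at a length found from the values.

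The filter kept the 15731 genes that reached 0.5 FPKM in 2 or more libraries. They were tested with limma 3.58.1 (R 4.3.3) on log2(FPKM + 0.1), a scale that understates changes of low genes. A single linear model held every library and a term for genotype, the variance prior followed expression, and p was adjusted by Benjamini-Hochberg with a threshold of 0.05. The test was checked on simulated data in which all groups had the same spread. That check cannot speak to groups whose spreads differ, as they do here. The members and lists were chosen with earlier results of these data known. Named genes are the 10 members, the 3 targeted genes, for each list and comparison with wild type up to 4 of those called with the smallest p (or the smallest p where fewer than 2 were called; some are left unnamed), and the 3 genes most like each arm. Replicates differed by more than sampling noise, and unequally between groups. The chi-square of the recovered reads per degree of freedom, which grows with this excess, was 63.5 to 129 between Mga-labelled libraries. It was 2.67 to 5.44 between replicates of the other groups. The spread that all groups share in the test includes that of the Mga-labelled libraries. Alternatives were the pseudocount, filter, scaling, centring by chromosome, samples fitted, spread per group, prior, replicate block, limma-voom on the recovered reads and each library left out.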

Additional observations from a re-analysis of the deposited data

How the results depend on the processing

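Over the 10 genes in 6 comparisons and 21 alternatives, 1084 of 1260 values kept their direction and their side of the threshold. Of the rest 106 lost the call, 49 gained a call and 21 changed sign. The causes of these changes were not tested. Leaving out a library changes the number of samples and the shared spread together. With only the 2 groups compared in the fit, the count of the 10 genes was 3 for Mga-labelled libraries against wild type, 9 (2 higher, 7 lower; 6 lower as reported) for L3mbtl2-/- and 5 for Pcgf6-/- against wild type, 2 for Mga-labelled against L3mbtl2-/-, 7 (1 higher) for L3mbtl2-/- against Pcgf6-/- (5 as reported) and 0 for Mga-labelled against Pcgf6-/- by limma (4 as reported). The counts of all genes were 3994, 10591 and 6878 for the Mga-labelled libraries, L3mbtl2-/- and Pcgf6-/- against wild type, where 6210, 6297 and 1584 were reported, and 593, 198 and 9667 between knockouts, where 3591, 3550 and 4803 were reported. With a spread for each group all-gene counts were 3709, 11110 and 7503 against wild type, 2283 for Mga-labelled against Pcgf6-/- and 10429 for L3mbtl2-/- against Pcgf6-/-, and 5 of the 10 genes passed in Pcgf6-/-. Centring by chromosome gave 2 in Pcgf6-/-. Without a filter the Mga-labelled against Pcgf6-/- count was 1 and the L3mbtl2-/- against Pcgf6-/- count 3, and without a trend in the prior the latter was 3. The counts with centring, without a filter and without a trend have no share of all genes beside them. They are not read as results about the 10 genes. Leaving out 1 library gave 3 to 7 of the 10 genes (2942 to 8525 of all) in L3mbtl2-/- against wild type, 0 to 2 (157 to 3960) in Pcgf6-/-, 4 to 7 (4196 to 8674) in Mga-labelled libraries, 3 to 8 (1192 to 5886) for Mga-labelled against L3mbtl2-/-, 1 to 9 (815 to 7003) for Mga-labelled against Pcgf6-/- and 1 to 6 (1694 to 7357) for L3mbtl2-/- against Pcgf6-/-. A lone remaining library was assumed to vary like the other groups.

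Values that changed sign were small or lay on chromosome 1. Ddit3 was -0.0063 in Mga-labelled libraries with upper-quartile scaling, and in L3mbtl2-/- -0.103 with median-of-ratios and -0.102 with upper-quartile scaling. Hspa5 in L3mbtl2-/- was -0.0104 and -0.0095 with these and -0.027 with chromosome centring. In Pcgf6-/- Atf4 was -0.016 and Asns -0.111 with chromosome centring, and Asns -0.024 with median-of-ratios scaling. Centring also gave Atf3 -0.53 for L3mbtl2-/- against Pcgf6-/-, and Eprs -0.27 and Ppp1r15b -0.19 in L3mbtl2-/-. With 1 library left out, Ddit3 ran from -0.065 to 0.21 in Mga-labelled libraries, -0.032 to 0.096 in L3mbtl2-/- and -0.077 to 0.20 between them, where Atf4 ran from -0.22 to 0.11 and Atf3 from -0.0056 to 0.34. With upper-quartile scaling the share of called genes that were higher was 46.5% in Mga-labelled libraries (57.8% as reported), 47.7% in L3mbtl2-/- (58.4%), 39.8% for Mga-labelled against Pcgf6-/- (53.2%) and 43.6% for L3mbtl2-/- against Pcgf6-/- (54.5%).

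Replicate numbers did not pair the samples: deviations of same-numbered libraries correlated at -0.0196 to 0.0349. With the number as a replicate block the count of the 10 genes was 1 for Mga-labelled against Pcgf6-/- and 3 for L3mbtl2-/- against Pcgf6-/-, and 992 of all genes passed in Pcgf6-/-. In the block fit Ddit3 in L3mbtl2-/- was -0.064, Hspa5 in Pcgf6-/- was 0.067 and Atf4 between Mga-labelled libraries and L3mbtl2-/- was 0.0029.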
